A study of Homo sapiens with 18 samples.

Results

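The 9 genes described here encode proteins that epithelial and liver cells make in the acute-phase and early innate response: the adhesion molecule ICAM1, the hyaluronan-binding protein TNFAIP6, the pentraxin PTX3, the mitochondrial superoxide dismutase SOD2, the siderophore-binding lipocalin LCN2, the complement proteins C3 and CFB, and the serum amyloids SAA1 and SAA2. Their probes were chosen by name, as every probe that was not a control spot and whose gene name in the scanner files was one of the 9. This gave 11 of the 41000 probes of the array. After the removal of probes with over 33% missing values, 9 of the 11 were left, 1 for each gene, among 28665 probes for 21030 genes.

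The cells were A549, a long-established human line grown from a lung adenocarcinoma, and their RNA was hybridised to 18 Agilent arrays of 1 colour, with 3 biological replicates (A to C) in each of 6 groups. Cells were exposed for 2 h, in medium without serum, to Ludox silica nanoparticles (NPs) of 9 nm diameter (SM30) or of 18 nm diameter (AS30). They then recovered in complete medium with serum, for 3 h after either NP (SM30 at 3 h and AS30 at 3 h) or for 22 h after AS30 (AS30 at 22 h). Each of the 3 treated groups had its own control group, which went through the same medium changes and the same recovery without NPs. The culture held a single tumour line and no leukocytes or liver cells were added. The comparisons ask how far each NP moved these genes, whether the smaller and the larger NP differed, and whether the response to AS30 at 3 h was still seen at 22 h.

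In inflamed epithelium, cytokines such as TNF, IL1B and IL6 act through NF-kB, C/EBP and STAT factors on the promoters of acute-phase and innate defence genes. Products of these genes hold leukocytes at the cell surface (ICAM1), bind hyaluronan and pentraxin in the matrix (TNFAIP6), opsonize particles and microbes (PTX3, C3), form the convertase of the alternative complement pathway (CFB), withhold iron (LCN2), turn superoxide into hydrogen peroxide in mitochondria (SOD2) and travel with lipoproteins in the acute phase (SAA1, SAA2). Liver cells are the main source of the serum amyloids, of C3 and of CFB in plasma, and alveolar epithelium also makes complement proteins.

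The share of spots that were positive and significant against background ran from 66.0% to 83.7% per array, the share well above background from 51.9% to 72.4%, and no spot was saturated. The arrays lay on 5 slides. The SM30 set and the AS30 sets shared no slide, the 3 SM30 controls lay with SM30 replicate A, and the AS30 treated and control arrays of the 3 h group had no slide in common. Of the AS30 controls at 22 h, only control C lay on the slide of the treated arrays. Array number limits the precision of all values. The epithelial markers KRT8, KRT18, KRT19, CDH1 and EPCAM were well above background on 18 of 18 arrays, and so were SFTPC and ABCA3 of alveolar type II cells. SFTPB was well above background on 1 array. Of 5 leukocyte markers, PTPRC was well above background on 0 arrays, while CD14, CD68 and CD3E were on 18. The summed signal of the 5 ran from 1212 to 1253 in SM30 cells against 820.3 to 866.6 in their controls, from 1484 to 1781 against 981.7 to 1326 for AS30 at 3 h, and from 1672 to 3689 against 1015 to 1405 at 22 h. CD68, with a median signal of 809.7 over the 18 arrays, made up the largest part. The part of these markers in the results below was not tested.

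The promoters of the members were read for short patterns that these transcription factors are known to bind. The RefSeq promoter table on GRCh38.p14 held 6 of the 9 genes, with 9 starts in all. In the 250 bases before the start, the NF-kB consensus lay in 3 of the 6 genes (PTX3, LCN2 and CFB), against 9.96% of 35116 promoters of the same length. The promoters of the 5 members whose 3 SM30 arrays all lay above their 3 controls are shown 5′ to 3′, for SOD2 at the most downstream of its 4 starts. Capitals mark matches on either strand to the NF-kB consensus, to GGAAATTCC, to the AP-1 pattern TGANTCA, to the C/EBP pattern TTGCNNAA and to the STAT pattern TTCNNNGAA, and on the strand shown to TATAAA.
ICAM1: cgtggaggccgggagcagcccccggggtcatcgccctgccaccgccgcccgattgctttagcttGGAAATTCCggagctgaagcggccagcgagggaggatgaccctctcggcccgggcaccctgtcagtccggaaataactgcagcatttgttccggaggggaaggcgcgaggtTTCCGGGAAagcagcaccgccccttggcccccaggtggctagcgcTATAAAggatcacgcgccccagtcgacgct
TNFAIP6: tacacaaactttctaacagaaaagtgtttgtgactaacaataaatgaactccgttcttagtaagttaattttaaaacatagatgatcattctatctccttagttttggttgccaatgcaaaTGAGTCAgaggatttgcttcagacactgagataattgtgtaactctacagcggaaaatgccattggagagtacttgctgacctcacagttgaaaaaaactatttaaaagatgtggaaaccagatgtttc
SOD2: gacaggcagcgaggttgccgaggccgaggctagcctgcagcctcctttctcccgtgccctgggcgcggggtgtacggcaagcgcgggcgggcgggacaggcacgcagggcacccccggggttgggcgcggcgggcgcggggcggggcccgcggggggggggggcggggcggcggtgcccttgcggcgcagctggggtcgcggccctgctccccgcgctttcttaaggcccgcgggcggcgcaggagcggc
PTX3: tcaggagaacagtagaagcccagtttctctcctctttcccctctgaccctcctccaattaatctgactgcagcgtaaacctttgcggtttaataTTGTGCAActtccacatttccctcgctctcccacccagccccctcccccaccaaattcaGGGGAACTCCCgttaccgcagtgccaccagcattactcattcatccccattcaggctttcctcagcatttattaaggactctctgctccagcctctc
CFB: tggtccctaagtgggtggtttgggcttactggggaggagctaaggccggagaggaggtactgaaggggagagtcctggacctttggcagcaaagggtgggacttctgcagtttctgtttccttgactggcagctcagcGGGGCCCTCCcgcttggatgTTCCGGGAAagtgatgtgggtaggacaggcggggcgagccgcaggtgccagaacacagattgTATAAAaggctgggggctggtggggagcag
These windows are chr19:10270870-10271119, plus strand (ICAM1), chr2:151357342-151357591, plus strand (TNFAIP6), chr6:159693242-159693491, minus strand (SOD2), chr3:157436600-157436849, plus strand (PTX3) and chr6:31945845-31946094, plus strand (CFB). In ICAM1 the letters GGAAATTCC, searched because they are a known NF-kB site of this promoter, began 186 bases before the start. They were in 0.413% of all promoters, but as a known site of ICAM1 they were sure to be found there, so this share is no test. ICAM1 held no match to the NF-kB consensus. TNFAIP6 held TGAGTCA, a match to the AP-1 pattern, at 129 bases before the start, a pattern found in 6.57% of promoters. Overlapping NF-kB matches began 97 and 96 bases before the start of PTX3, which also held the C/EBP match TTGTGCAA at 156 bases (9.05% of promoters). CFB held an NF-kB match at 112 bases and shared the STAT match TTCCGGGAA (6.57% of promoters) and TATAAA (6.8%) with ICAM1. LCN2, not shown, held matches to the NF-kB, C/EBP and AP-1 patterns. None of the 6 patterns was in the window of any of the 4 SOD2 starts. A match is a description of the letters and no evidence of binding.

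Values are given as the log2 of the quantile-normalized signal, and a difference of 1 on this scale is a doubling. The test was limma on the 6 groups with Benjamini-Hochberg adjustment over all probes, and a gene was called when its adjusted p was under 0.05. SM30 moved 3 of the 9 genes, all higher: ICAM1, TNFAIP6 and SOD2. Over all probes tested in this comparison 8.78% were called in either direction and 4.79% were called higher. AS30 at 3 h moved 2 of the 9 genes, ICAM1 and SOD2, both higher, where 4.59% of all probes were called and 2.40% were called higher. At 22 h the same 2 genes were called higher, where 4.99% of all probes were called and 3.41% were called higher. The genes were chosen with earlier results of these data known, so these shares are no test of the set. C3, CFB, LCN2, PTX3, SAA1 and SAA2 were not called in any of the 3 comparisons. Median differences of the 9 genes were 0.54 for SM30, -0.14 for AS30 at 3 h and -0.05 for AS30 at 22 h, and those of all probes were -0.05, 0.01 and -0.01. In bulk RNA a change in the number of cells that make a transcript cannot be told apart from a change in the amount per cell.

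**Figure D1:**
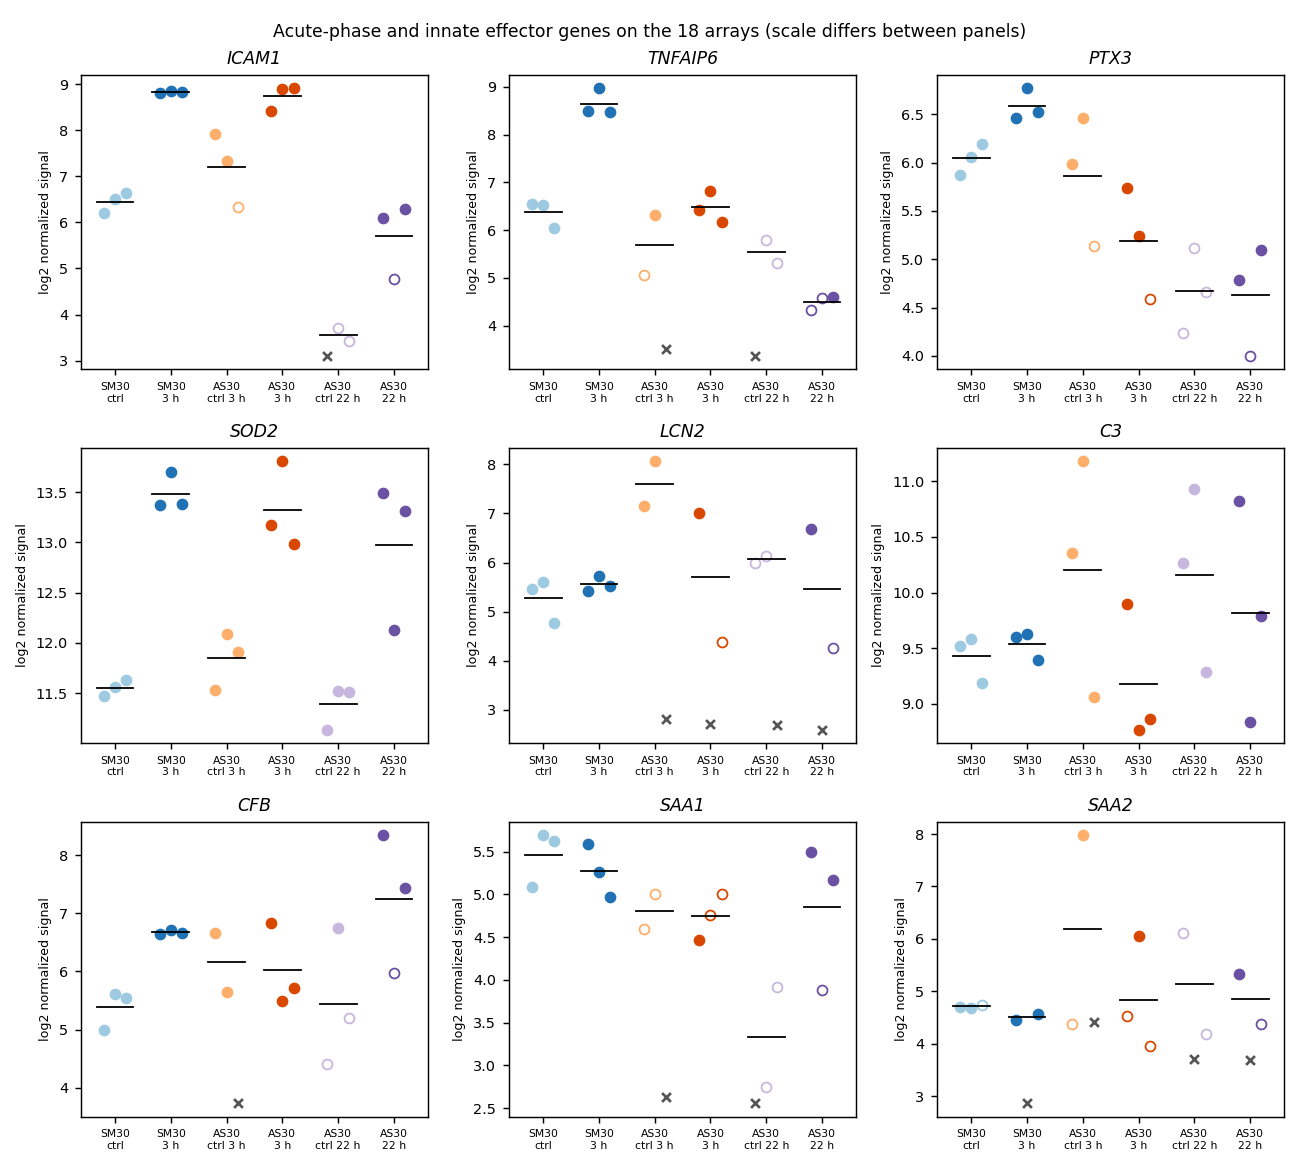
Log2 normalized signal (vertical axis, own scale in each panel) of the 9 genes on the 18 arrays, by group (horizontal axis), with replicates A, B and C from left to right in each group. Filled circles are well above background, open circles are positive and significant but not well above it, grey crosses are spots that were not positive and significant and were left out, and black lines are means of the circles. ICAM1 and SOD2 sit higher in treated than in control arrays in each set, and TNFAIP6 does so without overlap in the SM30 set.

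ICAM1, the ligand of leukocyte integrins on epithelium and endothelium, was measured by a probe at chr19:10257298-10257358 (hg18, the build of the files) that is spotted 10 times on each array. The 3 SM30 arrays gave 8.82, 8.85 and 8.84, and their controls gave 6.19, 6.5 and 6.63. All treated arrays lay above all controls, and the spread among treated arrays was small (SD 0.017, n = 3). ICAM1 thus rose by 2.39 (SE 0.39, adjusted p = 0.0024), or 5.24-fold. The difference was 2.37 within the slide that held SM30 replicate A and the 3 controls. With normexp background correction, which adds an offset of 50 to the signals, the rise was 0.94, still called.

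After AS30 and 3 h, ICAM1 gave 8.42, 8.89 and 8.92, against 7.92, 7.34 and 6.34 in the controls. The treated level was close to that of SM30 cells, the groups did not overlap, and the controls were spread over a wider range (SD 0.80, n = 3). The rise was 1.55 (SE 0.39, adjusted p = 0.042), or 2.92-fold, and was 0.66 with normexp background correction. The call was near the threshold, since it was lost, with adjusted p between 0.0513 and 0.146, in 10 of the 18 fits that left out 1 array: any SM30 array, SM30 control A or B, any AS30 array at 3 h, AS30 control B at 3 h, or AS30 control B at 22 h.

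At 22 h ICAM1 gave 6.09, 4.76 and 6.30 after AS30. Its controls B and C gave 3.70 and 3.42, and on control A the spots were not positive and significant. On controls B and C only 30% of the ICAM1 spots were positive and significant, and over all spots these arrays gave 3.37 and 3.32. Every measured treated array lay above every measured control (adjusted p = 0.017). None of the controls was well above background, so that no fold could be given. The call was lost without AS30 replicate A (adjusted p = 0.0682), without replicate C (0.0694) and without control B (0.0622). It was also lost in a fit to ratios of arrays with the same letter (0.0841) and with normexp background correction, where the difference was 0.25 (0.287). ICAM1 was also lower in AS30 controls at 22 h than at 3 h, where 1.30% of all probes were called and 0.795% were called lower. It fell from a mean of 7.2 to 3.56, at least 2.25-fold lower (adjusted p = 0.0023). With normexp background correction this difference was -0.63, still called, and a fit to these 6 arrays alone did not call it (0.332). It was the 1 of the 9 genes called between these control groups.

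SOD2, which clears superoxide in mitochondria, was the brightest of the 9 probes (chr6:160023580-160023639) and was well above background on 18 arrays. SM30 arrays gave 13.37, 13.69 and 13.38 against 11.47, 11.56 and 11.63 in controls. AS30 arrays at 3 h gave 13.17, 13.80 and 12.98 against 11.53, 12.09 and 11.91. At 22 h the values were 13.49, 12.13 and 13.31 against 11.14, 11.53 and 11.51. No treated array overlapped with its controls in any of the 3 sets, and AS30 replicate B at 22 h was the lowest treated array. SOD2 rose by 1.93 after SM30 (SE 0.30, adjusted p = 0.0014, 3.81-fold). It rose by 1.47 after AS30 at 3 h (SE 0.30, adjusted p = 0.015, 2.78-fold) and by 1.58 at 22 h (SE 0.30, adjusted p = 0.011, 3.00-fold). Within a slide the difference was 1.82 for SM30 (replicate A against 3 controls). It was 1.46 for AS30 at 22 h (3 treated arrays against control C alone), and the AS30 groups at 3 h shared no slide.

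The SOD2 call for AS30 at 3 h was lost without AS30 replicate B (adjusted p = 0.0807) and without control A (0.0576). At 22 h it was lost without AS30 replicate A (0.0558), replicate C (0.0588) or control A (0.0522). With the slide as a fixed term SOD2 was at 1.82 for SM30 (adjusted p = 0.0884), 1.09 for AS30 at 3 h (0.91) and 1.46 at 22 h (0.254), and ICAM1 for SM30 was at 2.37 (0.0873), so that only TNFAIP6 for SM30 and ICAM1 for AS30 at 22 h were still called among the members in that fit. ICAM1, TNFAIP6, SAA1 and SAA2 could not be fitted in it for AS30 at 3 h. For SM30 that fit rests on replicate A, and for AS30 at 22 h on control C, the arrays that shared a slide with the other group. On control C ICAM1 was not well above background.

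A second SOD2 probe, for another transcript (chr6:160032545-160032604), was positive on 12 of 18 arrays and was just removed, with 33.33% of its values missing. It gave 6.99, 6.93 and 7.08 in SM30 cells against 4.23, 3.17 and 3.71 in the controls. AS30 cells at 3 h gave 4.71, 4.93 and 3.82, and 1 of their controls was measured, at 2.66. Both SOD2 probes were thus higher in treated arrays at 3 h, and the removed one has no test.

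TNFAIP6, a secreted hyaluronan-binding protein that is induced by TNF and IL1, was measured at chr2:151934841-151934900. SM30 arrays gave 8.50, 8.98 and 8.46 against 6.54, 6.52 and 6.05 in controls. The groups stood well apart. The rise was 2.27 (SE 0.29, adjusted p = 0.00071), or 4.84-fold, and was 2.13 within the slide shared with the controls. With normexp background correction it was 0.78, still called. It was called in each of the 18 fits that left out 1 array, as were ICAM1 and SOD2 for SM30.

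After AS30 and 3 h TNFAIP6 gave 6.43, 6.82 and 6.17, against 5.06 and 6.31 in the measured controls A and B. Control C, at 3.51, lay below the treated arrays and was left out as not positive and significant. The treated arrays reached the level of SM30 controls and overlapped with control B. The difference of 0.79 (SE 0.33) was not called (adjusted p = 0.17), but without control B it was 1.42 and was called (adjusted p = 0.0416). With the dim spot of control C kept, the means were 6.47 in treated and 4.96 in control arrays, a larger difference than 0.79. At 22 h the treated arrays gave 4.34, 4.57 and 4.59 and the measured controls B and C gave 5.80 and 5.31. Control A, at 3.37 and so below the treated arrays, was left out as not positive and significant. The lower treated level against controls B and C was not called (adjusted p = 0.085), and no control was well above background. Without AS30 control A or B at 3 h, that comparison was called (adjusted p = 0.0333 and 0.0334).

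PTX3, the long pentraxin that TNFAIP6 binds, was spotted 10 times (chr3:158643663-158643722) and was dim. SM30 arrays gave 6.46, 6.77 and 6.53 against 5.88, 6.05 and 6.20. The 3 treated arrays lay above the 3 controls, and the difference of 0.54 (SE 0.36) was not called (adjusted p = 0.38). After AS30 at 3 h PTX3 gave 5.74, 5.24 and 4.59 against 5.98, 6.47 and 5.14, with overlap (adjusted p = 0.27). At 22 h it gave 4.78, 4.0 and 5.10 against 4.24, 5.11 and 4.66 (adjusted p = 0.96). PTX3 was thus on the side opposite to ICAM1 and SOD2 for AS30 at 3 h, without a call. On control C of that set only 30% of the PTX3 spots were positive and significant, and over all spots it gave 4.21, below the treated arrays. With all spots used the means were 5.355 in treated and 5.586 in control arrays, a smaller gap on the same side.

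CFB, the serine protease of the alternative complement pathway (chr6:32026971-32027126), gave 6.64, 6.71 and 6.67 in SM30 cells against 5.00, 5.61 and 5.55 in controls. The groups did not overlap, and the difference of 1.28 (SE 0.61) was not called (adjusted p = 0.22). A fit to these 6 arrays alone, with their own smaller spread, called it (adjusted p = 0.0067), together with PTX3 (0.0363). At 3 h after AS30 CFB gave 6.84, 5.50 and 5.71, against 6.66 and 5.65 in the measured controls. At 22 h it gave 8.34, 5.97 and 7.44 against 4.40, 6.75 and 5.19. Treated arrays A and C stood above every control, replicate B did not, and the difference of 1.80 (SE 0.61) was not called (adjusted p = 0.11). Without replicate B it was 2.44 (adjusted p = 0.0225).

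C3, the central complement protein (chr19:6630177-6630434), was well above background on 18 arrays. SM30 arrays gave 9.60, 9.63 and 9.39 against 9.52, 9.59 and 9.18, a difference of 0.11 with a 95% interval from -1.07 to 1.30. AS30 arrays at 3 h gave 9.90, 8.77 and 8.86 against 10.36, 11.18 and 9.06. At 22 h C3 gave 10.82, 8.84 and 9.79 against 10.27, 10.93 and 9.29. The groups overlapped in all sets, and AS30 replicates spanned a far wider range than SM30 replicates. The difference of -1.02 for AS30 at 3 h (SE 0.55) was not called (adjusted p = 0.28), and was called, at -1.59 (adjusted p = 0.0389), when the 3 dimmest arrays were left out, a setting chosen after the data were seen.

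LCN2, which binds bacterial siderophores (chr9:129954065-129954124), was measured on 14 of 18 arrays. SM30 arrays gave 5.42, 5.72 and 5.53 against 5.46, 5.60 and 4.76 (adjusted p = 0.85). AS30 replicates A and C at 3 h gave 7.01 and 4.38 against 7.15 and 8.06 in controls A and B (adjusted p = 0.20). At 22 h AS30 replicates A and C gave 6.68 and 4.26 and controls A and B gave 6.0 and 6.13 (adjusted p = 0.73). Both AS30 sets overlapped with their controls or held only a pair of arrays a group. LCN2 was the 1 gene of the 9 that was called between SM30 controls and AS30 controls at 3 h, at -2.33 (SE 0.77, adjusted p = 0.046), in a comparison that called 26.8% of all probes (11.1% lower) and whose sets lay on different slides. That call was lost in 11 of the 18 fits that left out 1 array. It rests on AS30 controls A and B, since control C, at 2.82, was not positive and significant. With dim spots kept the difference was -0.74 and was not called (adjusted p = 0.783).

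SAA1 and SAA2, the acute-phase apolipoproteins, have neighbouring genes on chromosome 11 whose transcripts are alike, and reads of one by the probe of the other were not tested. SAA1 (chr11:18247444-18247886) gave 5.58, 5.27 and 4.97 in SM30 cells against 5.08, 5.69 and 5.62 in controls (adjusted p = 0.82). At 3 h after AS30 it gave 4.47, 4.76 and 5.01, against 4.60 and 5.01 in the measured controls, none well above background (adjusted p = 0.96). At 22 h it gave 5.50, 3.88 and 5.17, against 2.74 and 3.92 in controls B and C, with overlap at replicate B. That difference was not called (adjusted p = 0.069) and no control was well above background. It was called without replicate B (adjusted p = 0.00618) and without control C (0.0294), and also with the slide as a random block (0.049).

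SAA2 (chr11:18223603-18224056) was measured on 14 arrays and well above background on 7, with no call in any comparison (adjusted p between 0.28 and 0.92). Its values ran from 3.95 to 7.98, the highest being AS30 control B at 3 h, which was also the highest array for LCN2 and C3. A second SAA2 probe (chr11:18244884-18244943) was positive on 0 of 18 arrays. In the files it lies 2501 bases from the SAA1 probe and 20828 bases from the other SAA2 probe.

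**Figure D2:**
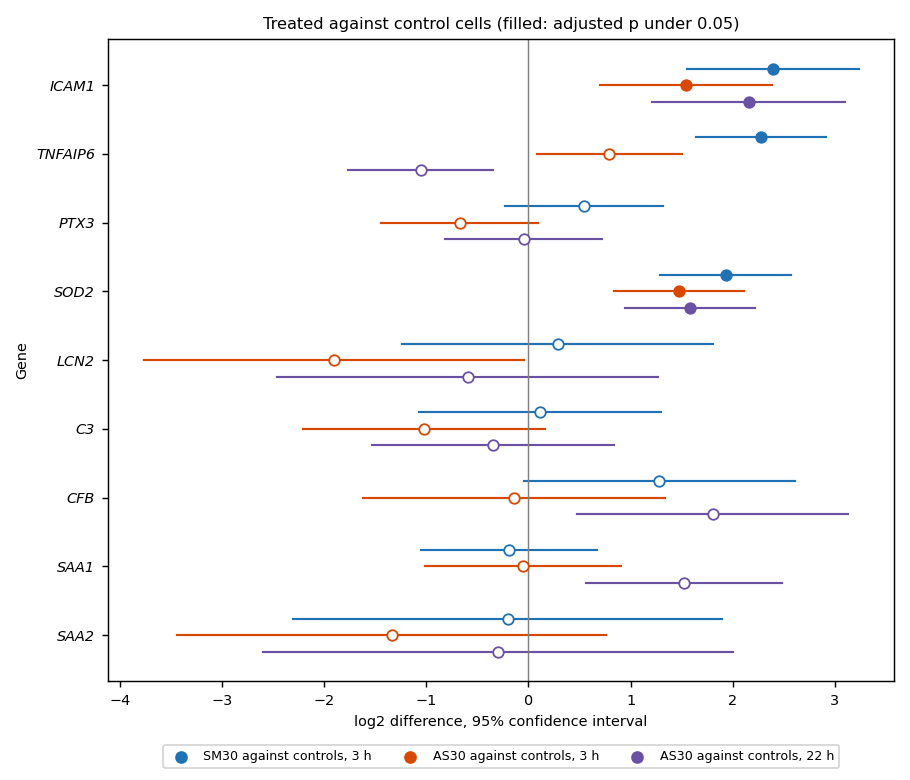
Fitted log2 difference between treated and control arrays (horizontal axis, with its 95% confidence interval) for the 9 genes (vertical axis) in the 3 comparisons, filled where the adjusted p was under 0.05. ICAM1 and SOD2 were called in all 3 comparisons and TNFAIP6 for SM30 alone. At 22 h the controls of ICAM1, TNFAIP6, PTX3, LCN2, SAA1 and SAA2 were not well above background on any array. The same holds for the SAA1 controls of AS30 at 3 h, and all of those points are fitted values and not folds.

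The counts are given beside those of all probes measured on every array of a comparison. The members were chosen with earlier results of these data known, so this is a description and no test of the set. For SM30 the 3 treated arrays lay above the 3 controls for 5 of 8 such members (ICAM1, TNFAIP6, SOD2, PTX3 and CFB), where 19.2% of all probes did so. For AS30 at 3 h this was so for 2 of 4 members, ICAM1 and SOD2, against 13.2% of all probes. At 22 h it was so for 1 of 4 members, SOD2, against 12.8%.

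The responses to the 2 NPs were compared as the difference between SM30 against controls and AS30 against controls at 3 h. None of the 9 genes was called, where 0.0489% of all probes were called, and 2 of the 9 had an unadjusted p under 0.05 in limma. These were TNFAIP6, with a response larger by 1.48 after SM30 (SE 0.44, 95% interval 0.53 to 2.44, adjusted p = 0.23), and PTX3 with 1.22 (SE 0.51, interval 0.13 to 2.31, adjusted p = 0.32). Both values leave out dim spots of AS30 control C. With all spots used, AS30 treated and control means were 6.47 and 4.96 for TNFAIP6 and 5.355 and 5.586 for PTX3. Both differences between the NPs were then smaller. For SOD2 the difference was 0.46 with an interval from -0.45 to 1.36, and for ICAM1 it was 0.84 with an interval from -0.35 to 2.04. For SOD2 and ICAM1 these intervals hold both 0 and differences above a doubling. The intervals are not adjusted for the number of genes, and with that adjustment the TNFAIP6 responses to the 2 NPs were not called different.

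The AS30 responses at the 2 recovery times were compared in the same way. None of the 9 genes was called, where 0.245% of all probes were called, and 2 of the 9 had an unadjusted p under 0.05 in limma. They were TNFAIP6, whose response was lower at 22 h (SE 0.46, adjusted p = 0.11), and SAA1, whose response was higher (SE 0.63, adjusted p = 0.26). Both rest on controls at 22 h that were not well above background. TNFAIP6 was called in this comparison without AS30 control B (adjusted p = 0.0426) or control C (0.0388) of the 3 h group. For SOD2 the difference was 0.11, with an interval from -0.79 to 1.01.

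**Figure D3:**
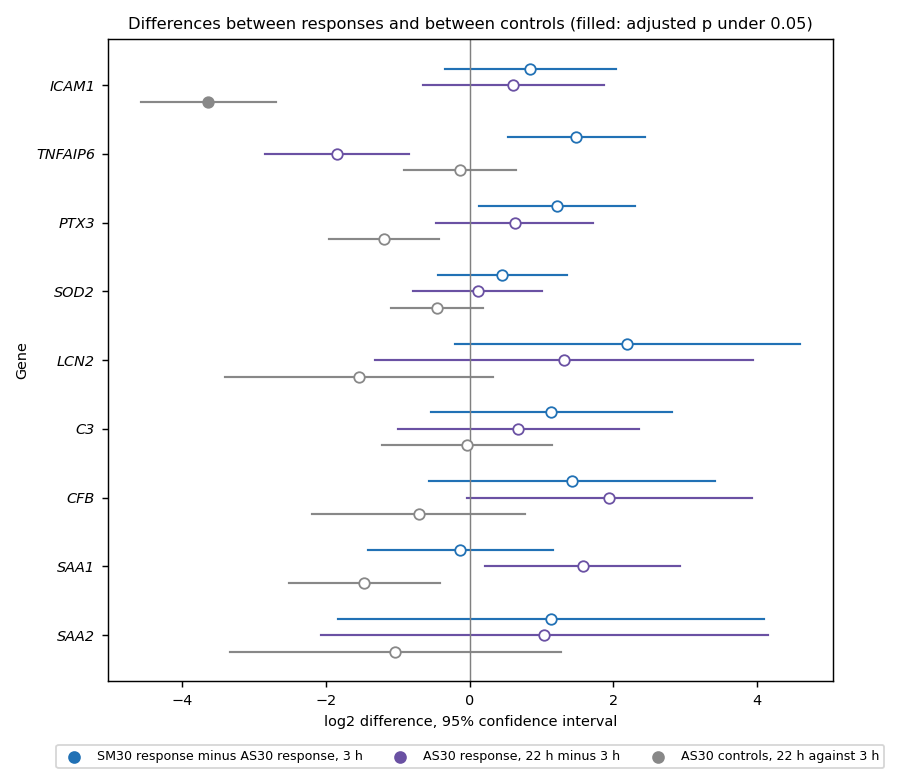
Fitted log2 difference (horizontal axis, with its 95% confidence interval) of the 9 genes (vertical axis) between the responses to SM30 and AS30 at 3 h, between the responses to AS30 at 22 h and 3 h, and between AS30 controls at 22 h and 3 h. No response difference was called, and ICAM1 in the controls is the single filled point.

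The members did not vary as one group over the arrays. Over the arrays on which both were measured, Pearson's r of log2 values was 0.78 for C3 and LCN2 (14 arrays), 0.74 for PTX3 and TNFAIP6 (16 arrays) and 0.64 for ICAM1 and SOD2 (17 arrays). It was -0.18 for C3 and SOD2 (18 arrays) and -0.27 for LCN2 and SAA1 (13 arrays). The genes most like TNFAIP6 over 16 arrays, among 23030 probes, were RALA (r = 0.97), PSD3 (0.97), JPH3 (0.97), BMAL1 (0.96) and RABGEF1 (0.95). Those most like C3 over 18 arrays were LPCAT1 (0.90), STAU2 (0.89), CPT2 (0.88), LYPD1 (0.86) and DCAF10 (0.85). Arrays of a set share slides, treatment and controls, and these values are descriptions of the 18 arrays.

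Of 25 genes that induce the members or carry the signal to them, 23 were measured. The lists were chosen with earlier results of these data known, so their counts are descriptions and no test of a list. For this list and the lists below, the shares over all probes are given beside the counts. Called higher were 4.79% for SM30, 2.40% for AS30 at 3 h and 3.41% at 22 h. In either direction these shares were 8.78%, 4.59% and 4.99%. For SM30, 8 of the 23 rose, and the median difference of the 23 was 0.60 against -0.05 for all probes. TNF, an inducer of ICAM1 and TNFAIP6, rose by 1.81 (SE 0.24, adjusted p = 0.0015), from controls of which 1 was well above background, while another TNF probe was at 0.06 (0.879). IL6R, the receptor of IL6, rose by 1.51, the NF-kB cofactor NFKBIZ by 1.37, the acute-phase transcription factor CEBPB by 1.14 and the NF-kB subunit RELB by 0.73. IL6 itself was at 1.97 with an SE of 0.72 and IL1B at 1.99 with an SE of 0.87, and neither was called (adjusted p = 0.11 and 0.18); they are named after their values were seen.

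For AS30 at 3 h 3 of these 23 genes rose. IL6R rose by 1.57 (adjusted p = 0.00066) and CEBPB by 1.01 (0.0217), close to their SM30 values, and the third was RELA. The responses to SM30 and AS30 at 3 h were called different for 0 of the 23. In SM30 controls 6 of the 23 were called lower than in AS30 controls at 3 h, where 11.1% of all probes were. Among them were NFKB2 (-1.25), NFKB1 (-0.78) and RELA (-0.45), which were called higher for SM30 against these lower controls. The 2 control sets lay on different slides. At 22 h 2 of the 22 tested rose, the NF-kB subunits NFKB2 by 0.71 (adjusted p = 0.0217) and RELB by 0.66 (0.0256), while IL6R was at 0.25 (0.448). The IL6R response was lower at 22 h than at 3 h, by the test of that difference (-1.32, adjusted p = 0.048). In AS30 controls 3 of the 22 were lower at 22 h than at 3 h, as ICAM1 was, where 0.795% of all probes were called lower. They were RELB (-1.41, adjusted p = 0.00054), NFKB1 (-1.13, 0.00818) and NFKB2 (-0.895, 0.0132). The rises of NFKB2 and RELB at 22 h are thus against controls that were lower than those at 3 h.

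**Figure D4:**
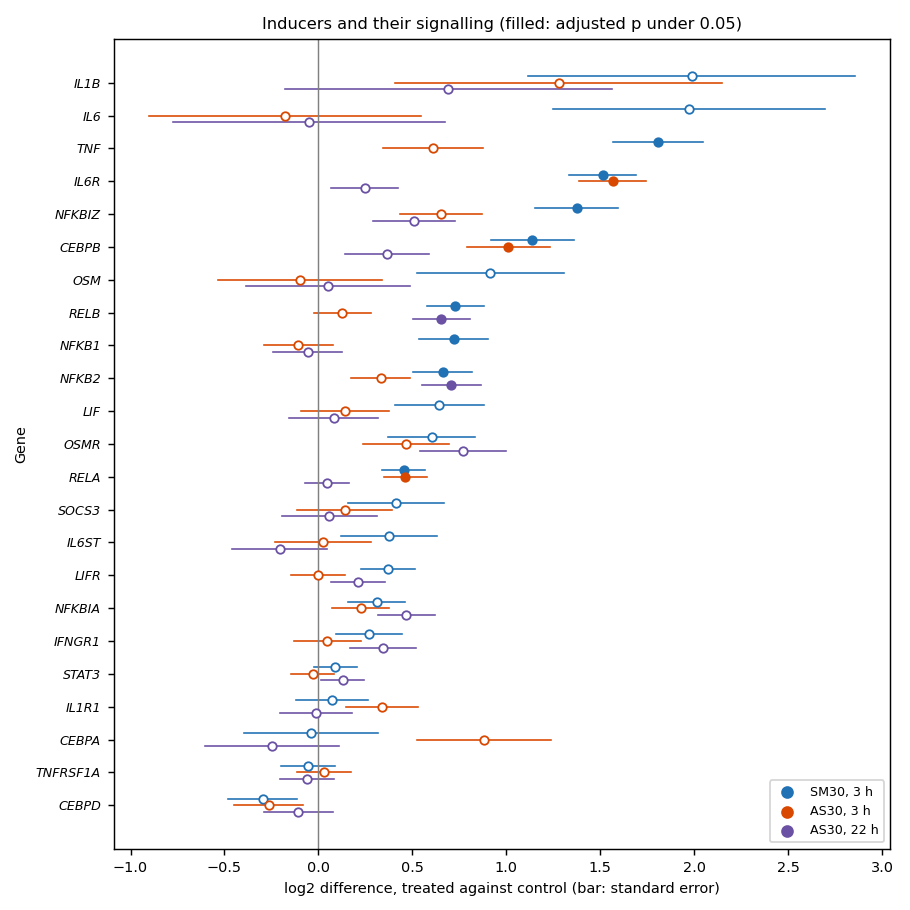
Log2 difference between treated and control arrays (horizontal axis, bar for the standard error) of the 23 measured inducers and signalling genes (vertical axis) for SM30 and AS30 at 3 h and AS30 at 22 h, filled where the adjusted p was under 0.05. Of the 23 genes 8 are filled for SM30 and 3 for AS30 at 3 h, and TNF has no value at 22 h.

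Of 20 plasma acute-phase proteins that liver cells secrete, 14 were measured. For SM30, where 4.79% of all probes were called higher, 1 of the 14 rose, the thyroxine carrier TTR. TTR was at 1.47 (SE 0.40, adjusted p = 0.0492), with a list median of -0.21. For AS30 limma called 1 of 14 at 3 h and 1 of 13 at 22 h, where 3 and 7 had an unadjusted p under 0.05. Both times it was FN1, the matrix protein fibronectin, which fell by 0.84 at 3 h (adjusted p = 0.0132) and by 0.75 at 22 h (0.021). A further FN1 probe was called lower too, at -0.68 (adjusted p = 0.0358) and -0.73 (0.0256), and another was at 0.13 and -0.16 without a call. TTR is a plasma protein that falls in the acute phase of the liver.

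Of 33 other complement genes 20 were measured. For SM30, where 4.79% of all probes were called higher, 1 of the 20 rose. It was CD55, which speeds the decay of C3 convertases on the cell surface. CD55 rose by 1.84 (SE 0.38, adjusted p = 0.0083), and its other probes gave 2.34 and 2.62. For AS30 at 3 h limma called 0 of these genes by their brightest probes (3 had an unadjusted p under 0.05), with CD55 at 1.30 (adjusted p = 0.0637) and its other probes at 1.26 (0.0603) and 1.40 (0.0428). At 22 h C5 fell by 0.85 (adjusted p = 0.0065) and C5AR1 was called lower, not well above background in either group.

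Among 22 antimicrobial and defence genes of epithelium 9 were measured. For SM30 limma called 0, and 1 had an unadjusted p under 0.05. S100A7 was called higher after AS30 at 3 h (adjusted p = 0.0475), with no control well above background. At 22 h SFTPA1, a surfactant collectin, fell by 0.87 (adjusted p = 0.0066), and its response was lower at 22 h than at 3 h (-1.09, adjusted p = 0.048).

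Of 14 adhesion genes 10 were measured, and 1 was called in the 3 comparisons. It was CD44, the hyaluronan receptor, which rose by 0.70 after SM30 (adjusted p = 0.0329). For AS30 2 of the 10 had an unadjusted p under 0.05 in limma at 3 h and 1 of 9 at 22 h. Of 15 hyaluronan and pentraxin partners 11 were measured. HMMR, a mitotic hyaluronan receptor, fell by 0.88 after SM30 (adjusted p = 0.018). HAS3, a hyaluronan synthase, rose by 0.89 (0.0357) and the hyaluronidase HYAL2 by 0.43 (0.0412) after AS30 at 3 h. HYAL1, another hyaluronidase, was called higher at 22 h (0.0147) with no control well above background.

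Of 17 superoxide and peroxide enzymes 15 were measured, and limma called 0 at 3 h after either NP (0 also had an unadjusted p under 0.05), when SOD2 was 3.81-fold and 2.78-fold higher. At 22 h PRDX5, a peroxiredoxin, rose by 0.60 (adjusted p = 0.0247) and TXNRD1, a thioredoxin reductase, by 0.56 (0.0433). Median differences of this list were 0.06, 0.02 and 0.05 in the 3 comparisons.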

How the data were processed

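For each array the authors deposited the output of Agilent Feature Extraction 10.5.1.1, with spot intensities on a linear scale, of which the processed signal had been corrected for background by the software. A table of the same arrays, made by the authors, holds intensities that, per the methods, were quantile normalized and averaged over replicate spots, and it served as an alternative. Probe positions are on hg18. Groups and replicate letters came from the labels, and no array was left out.

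All fits used limma 3.58.1 with statmod 1.5.0 under R 4.3.3. After removal of control spots, the log2 processed signal of all 18 arrays was quantile normalized, which would hide a change of all genes at once. A spot that the software did not mark as positive and significant counted as missing, outlier spots were not used, and the mean was taken over repeated spots of a probe. Probes with over 33% missing values were removed. Symbols of 18778 kept probes came through their accession from RefSeq names on GRCh38.p14, and a gene with several probes is given by the brightest.

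Limma was fitted to the 6 group means without pairing by letter, two-sided, with Benjamini-Hochberg adjustment over all probes tested and a threshold of 0.05. The scripts were tested on simulated data. Where no array of a group was well above background, a fold is a bound, taken from the brighter mean against the lowest signal well above background on each dim array, or the probe's own where higher. Other normalizations, background corrections, filters, blocks and sets of arrays were tried, 1 of them (leaving out the 3 dimmest arrays) chosen after the data were seen.

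The 9 members and the 7 gene lists were chosen with earlier results of these data known. Every member was named, and of each list at most 5 genes past the threshold, by size of change, with exceptions stated. A gene first listed among the inducers is not reported here and is left out of their counts. For TNFAIP6 and C3 the 5 genes of highest Pearson correlation were named, among probes measured on all of their arrays. Motifs were searched in the 250 bases before each RefSeq start.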

Additional observations from a re-analysis of the deposited data

How the results depend on the processing

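The calls of ICAM1, TNFAIP6 and SOD2 for SM30 held in each of the 18 fits that left out 1 array. The number called ran from 0 to 2 for AS30 at 3 h, where it was 0 without AS30 replicate B, and from 0 to 4 for AS30 at 22 h, where it was 0 without AS30 replicate A or C and 4 without replicate B. It ran from 0 to 1 for the change of the AS30 response with time, from 1 to 2 between AS30 controls and from 0 to 1 between SM30 and AS30 controls. The probes of SAA1, SAA2, LCN2, TNFAIP6 and PTX3 were well above background on 9, 7, 10, 11 and 12 of the 18 arrays, which limits what could be measured for them. Over all alternatives and members there were 1442 results on the same side of the threshold and in the same direction, 51 calls lost, 14 gained and 51 changes of sign, all of the last in differences without a call. For the comparison of SM30 controls with AS30 controls, these totals hold LCN2 alone.

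Other settings moved the number of the 9 genes called as follows. For AS30 at 3 h it was 1 with 75th percentile scaling and 1 with dim spots kept. For AS30 at 22 h it was 1 with normexp background correction and 1 with the authors' processed values. Between SM30 and AS30 controls it was 0 with dim spots kept and 0 with the authors' values, and between AS30 controls it was 2 with outlier spots kept. With only probes well above background on all arrays, 2 members (SOD2 and C3) could be tested, and 1 was called in each treated comparison, 0 between AS30 controls and 0 between control sets. With the slide as a fixed block it was 1 for SM30, 0 for AS30 at 3 h (of 5 genes that could be tested), 1 at 22 h and 0 between AS30 controls, and the SM30 and AS30 controls could not be compared. Between AS30 controls ICAM1 could not be fitted with this block, so that the 0 is no test of its call. In fits to the 6 arrays of a comparison alone it was 5 for SM30, 0 for AS30 at 3 h, 0 at 22 h and 0 between AS30 controls. Without the 3 dimmest arrays, a choice made after the data were seen, it was 0 of 8 for AS30 at 22 h. With dim spots kept, TNFAIP6 for SM30 had an adjusted p of 0.0535. SAA1 for AS30 at 22 h was called with the slide as a random block (adjusted p = 0.049). The number called over all probes moved with the setting as well, by the ranges given at the end of this section. For AS30 at 3 h, for AS30 at 22 h and between AS30 controls, some setting called 0 of all probes. A change in the count of members is thus not particular to them, and the cause of these changes was not tested.

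The replicate block, a fit to ratios between arrays of the same letter, called 1 of the 9 genes for AS30 at 3 h and 1 at 22 h, losing ICAM1 both times (adjusted p = 0.0956 and 0.0841). In this pairing CFB for AS30 at 3 h was at 0.012 and LCN2 for AS30 at 22 h at 0.679, against -0.14 and -0.60 without it. After subtraction of the group mean, arrays with the same letter correlated at -0.013 to 0.088 in the SM30 set, -0.091 to 0.476 in the AS30 set at 3 h and 0.104 to 0.19 at 22 h, and no source says that a letter marks a shared batch. The block changed no other call of the 9 genes in the 3 treated comparisons.

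Changes of sign were as follows, in log2. With 75th percentile scaling PTX3 for AS30 at 22 h was 0.036 and the change of the SOD2 response with time -0.02. With normexp the difference of the SAA1 responses to SM30 and AS30 was 0.015, the change of the ICAM1 response with time -0.41 (-0.068 with the authors' values) and CFB between AS30 controls 0.031. With dim spots kept, SAA1 and CFB for AS30 at 3 h were 0.669 and 0.667, PTX3 at 22 h 0.295, the difference of the SAA2 responses to the NPs -0.001 and CFB between AS30 controls 0.097. With the slide as a fixed block SAA1 for SM30 was 0.119, C3 and SAA2 for AS30 at 22 h 0.529 and 0.66, as they were without the 3 dimmest arrays, and C3 between AS30 controls 0.071. With the slide as a random block CFB for AS30 at 3 h was 0.053. Without the 3 dimmest arrays the change of the SOD2 response was -0.047.

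Leaving out 1 array at a time, C3 ran from -0.012 to 0.189 for SM30, from -0.85 to 0.145 for AS30 at 22 h and from -0.606 to 0.452 between AS30 controls. CFB for AS30 at 3 h ran from -0.647 to 0.366. LCN2 ran from -1.806 to 0.614 for AS30 at 22 h and from -0.004 to 2.626 for the change with time. PTX3 for AS30 at 22 h ran from -0.281 to 0.268. SAA1 ran from -0.26 to 0.147 for AS30 at 3 h and from -0.337 to 0.069 for the difference between NPs. SAA2 ran from -3.138 to 0.464 for AS30 at 3 h, -1.254 to 0.66 at 22 h, -2.835 to 0.767 between AS30 controls, -0.761 to 2.841 for the change with time and -0.668 to 2.933 between NPs. The change of the SOD2 response with time ran from -0.149 to 0.534, and TNFAIP6 between AS30 controls from -0.758 to 0.496.

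Counts over all probes moved by more than 1.5 times under some settings. Against 2518 probes called for SM30, the settings other than leaving out 1 array gave 331 to 5221. Against 1313 for AS30 at 3 h they gave 0 to 6441, and against 1408 at 22 h 0 to 1926. Against 14 for the difference between NPs they gave 3 to 2475, against 69 for the change with time 8 to 1662, against 366 between AS30 controls 0 to 2677 and against 7668 between control sets 3197 to 9680.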
